A study of Mus musculus with 33 samples.

Results

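Fibin, Pqlc1, Cyp26b1, Nat9, Bcat1 and Dleu7 are 6 mouse genes whose response to ER stress in kidney differed between C57BL/6J (B6), CAST/EiJ (CAST) and their F1 hybrid. They are 6 of the 50420 genes listed in these data, and they were selected on the measured kidney values themselves: each is among the 20 of 22767 kidney genes for which the response to tunicamycin (TM) depended on genotype. All kidney values of the 6 genes, including which of them passed a threshold there, are therefore given as a description, with an error and without a p-value. Liver values were not used in that selection, and the liver is the tissue in which the genes were tested. Earlier results of these data were known when the genes were chosen. TM blocks N-linked glycosylation, so that unfolded glycoproteins collect in the endoplasmic reticulum (ER). Male mice of each genotype, 15 to 23 weeks old, were injected in the peritoneum with 1 mg/kg TM or with the solvent DMSO as control, and the labels place tissue collection 24 h later, while the methods of the study give a shorter time, so the time is uncertain. B6 is the common laboratory strain, CAST is a wild-derived strain of another subspecies, and the F1 had a B6 mother and a CAST father. The 33 libraries form 12 groups of 2 or 3 samples: 3 control and 3 TM samples in each kidney, 3 control and 2 TM samples in B6 and F1 liver, and 2 control and 3 TM samples in CAST liver. The labels number the samples within a group and do not say which came from one animal, so the errors below measure the spread between these samples. The study describes 6 mice of each genotype for both organs, so liver and kidney samples may come from the same mice. The liver is therefore not a test in separate animals.

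In cells under ER stress the unfolded protein response (UPR) raises chaperones, slows translation and, through the factor ATF4, raises genes of amino acid supply. None of the 6 genes is a classical UPR chaperone, and their known roles are unlike each other. Fibin (fin bud initiation factor) is a secreted protein first described in the zebrafish fin bud. Pqlc1, also called Slc66a2, is a membrane protein of the PQ-loop family, to which the lysosomal amino acid exporter Pqlc2 and the cystine transporter cystinosin belong. Cyp26b1 is a cytochrome P450 that breaks down retinoic acid and so ends retinoid signalling. Nat9 is an N-acetyltransferase of the GNAT type, known from Drosophila as a regulator of microtubule stability. Bcat1 is the cytosolic aminotransferase that takes the amino group from leucine, isoleucine and valine. Dleu7 is named for the chromosome region that is lost in human chronic lymphocytic leukaemia.

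Library depth ran from 3355262 to 23094521 reads with a median of 13143216. The TM response itself was present everywhere: Ddit3, the stress-induced transcription factor CHOP, was higher with TM by 6.30 to 6.93 on the log2 scale in the 6 tissue and genotype combinations, and Hspa5, the ER chaperone BiP, by 3.67 to 5.35. The tissues matched their labels, since the summed level of 4 proximal tubule markers was 7908 to 22737 CPM (counts scaled to a common library size) in kidney and 0.384 to 15.9 in liver, and that of 5 hepatocyte markers was 27363 to 112256 in liver and 444 to 1649 in kidney. No marker of these lists was at 0 in every library of the other tissue. A few libraries stood apart. The summed level of smell and pheromone receptor genes was used to mark unusual libraries. It was over 400 CPM in 4 libraries (B6 liver control 2, B6 liver TM 3, F1 liver TM 2 and F1 kidney control 1). Elsewhere it ran from 39.4 to 299 CPM, so reads on these genes were found in every library. F1 kidney control 1 also had the fewest reads, and F1 liver control 2 held 61.5% of its reads on 1 repeat-like gene model.

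The regulatory sequence before 5 of the 6 genes could be read from RefSeq promoter windows (assembly GRCm38.p6, 300 bases from 250 before to 50 after a transcription start). The windows were searched on both strands for 4 UPR motifs: the CARE (TGATGNAA) read by ATF4, the core of the UPRE (TGACGTGG) read by XBP1 and ATF6, the CRE (TGACGTCA), and the ERSE, which is CCAAT, 9 bases of any kind and CCACG. None of the 8 windows of Fibin (1), Cyp26b1 (1), Nat9 (3), Bcat1 (2) and Dleu7 (1) held a match, against 6.49% of all 32851 mouse windows that held at least 1 of the 4. The separate shares were 3.97% for the CARE, 0.676% for the UPRE core, 1.79% for the CRE and 0.119% for the ERSE. The end blocks of the ERSE were then looked for, a choice made after the whole motif had not been found. In the 250 bases before the start, CCAAT was present in 33.8% and CCACG in 28.3% of all windows. CCAAT occurred 2 times and CCACG 1 time at the second start of Nat9, CCAAT 1 time at the first start of Bcat1, and the bases before Fibin held neither block. Over the 8 windows, CCAAT was found in 2 (these windows of Nat9 and Bcat1) and CCACG in 3 (this window and the third of Nat9, and the second of Bcat1). The stretches of Fibin, Nat9 and Bcat1 are printed as examples. Fibin rose with TM in both tissues of all 3 genotypes. Nat9 and Bcat1 had kidney values with TM on opposite sides of the controls in B6 and CAST. Dleu7 had such values too, and its bases, which are not printed, held neither block. A link between the blocks and the direction of the response was not tested. The 3 printed stretches are given 5′ to 3′ on the strand of the gene, with CCAAT and CCACG on either strand in capitals. Fibin lies at chr2:110362994-110363243 on the minus strand, Nat9 (second of 3 starts) at chr11:115187400-115187649 on the minus strand, and Bcat1 (first of 2 starts) at chr6:145076158-145076407 on the minus strand.
Fibin: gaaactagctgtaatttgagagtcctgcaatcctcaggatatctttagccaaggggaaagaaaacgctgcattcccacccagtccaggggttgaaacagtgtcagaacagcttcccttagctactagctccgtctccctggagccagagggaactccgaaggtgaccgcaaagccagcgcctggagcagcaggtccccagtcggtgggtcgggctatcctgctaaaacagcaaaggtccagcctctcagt
Nat9: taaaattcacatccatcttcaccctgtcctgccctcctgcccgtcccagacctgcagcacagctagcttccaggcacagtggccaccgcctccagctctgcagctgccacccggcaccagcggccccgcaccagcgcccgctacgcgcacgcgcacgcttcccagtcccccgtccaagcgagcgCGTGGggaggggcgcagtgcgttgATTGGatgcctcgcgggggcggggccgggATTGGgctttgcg
Bcat1: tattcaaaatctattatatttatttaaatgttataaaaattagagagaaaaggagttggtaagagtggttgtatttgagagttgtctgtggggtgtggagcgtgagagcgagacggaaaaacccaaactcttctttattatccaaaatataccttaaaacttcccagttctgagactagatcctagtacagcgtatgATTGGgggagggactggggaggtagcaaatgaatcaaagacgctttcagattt
The bases are those of the B6 reference genome, and the CAST alleles were not analysed here. A match or its lack describes these letters and says nothing about which factor acts on the gene.

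Of the 6 genes, 5 passed the threshold in B6 kidney (adjusted p below 0.05 and at least 1.5-fold), with Fibin, Pqlc1, Cyp26b1 and Dleu7 higher and Bcat1 lower with TM. In CAST kidney Fibin, Nat9 and Bcat1 were higher and Dleu7 was lower, and in F1 kidney Fibin, Nat9 and Pqlc1 were higher. Over all genes tested, 9.73% were called higher and 7.77% lower in B6 kidney, 8.69% and 4.7% in CAST kidney, and 7.54% and 2.57% in F1 kidney. Because the genes were chosen on these contrasts, nothing is read from their counts. The share of genes called genotype-dependent in kidney was 0.0878%, and the 6 genes stood at ranks 4 (Fibin), 11 (Nat9), 12 (Bcat1), 13 (Pqlc1), 16 (Dleu7) and 18 (Cyp26b1) of the 20. The F statistic of that test was 32.4 for Fibin and 19.2 to 21.1 for the other 5, with Cyp26b1 the nearest to the limit of the list. When B6 control 2, B6 control 3, any B6 TM sample or CAST TM 2 was left out, Fibin alone of the 6 stayed on the list, and without CAST control 3 Fibin, Pqlc1 and Nat9 stayed on it. In whole kidney, a change in the number of cells that make a transcript and a change in RNA per cell cannot be told apart. The summed level of the 4 proximal tubule markers was also lower with TM in B6 (18172 to 21224 CPM in controls, 8347 to 11273 with TM) and in CAST (14067 to 22737, and 7908 to 9504), while in F1 it was 10853 to 15531 and 9670 to 11117. The median log2 fold change of the 4 markers was −0.46 in B6, −0.13 in CAST and 0.23 in F1, so the sum does not stand for each marker. Of these markers only Kap passed the test, in B6 (log2 fold change −1.53 ± 0.33 SE, adjusted p = 0.00840). Kap was also below 0 in CAST (−1.27 ± 0.45, adjusted p = 0.102) and F1 (−0.57 ± 0.88, adjusted p = 0.729), without a call. The part of these markers in the values below was not tested. In the other kidney marker lists, Col1a1 and Pdgfrb of 5 fibroblast genes fell in B6, Adgre1 of the leukocyte genes rose in all 3 genotypes, Adipoq of 3 adipocyte genes rose in CAST, and Ttr of 5 hepatocyte genes fell in B6 and F1. The list medians there were −0.65 (fibroblast, B6), 0.96 (adipocyte, CAST), and −0.55 in B6 and 0.15 in F1 (hepatocyte). For leukocyte genes they were 0.01 in B6, 0.27 in CAST and −0.35 in F1. In F1 the leukocyte and hepatocyte medians thus had the opposite sign to Adgre1 and Ttr. Col1a1 and Pdgfrb also had values below 0 in CAST (−0.73 ± 0.29 and −0.32 ± 0.28) and F1 (−0.97 ± 0.36 and −0.21 ± 0.26), where neither was called. No marker of thick ascending limb and distal tubule, collecting duct, podocyte or endothelium was called in any kidney.

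**Figure D1:**
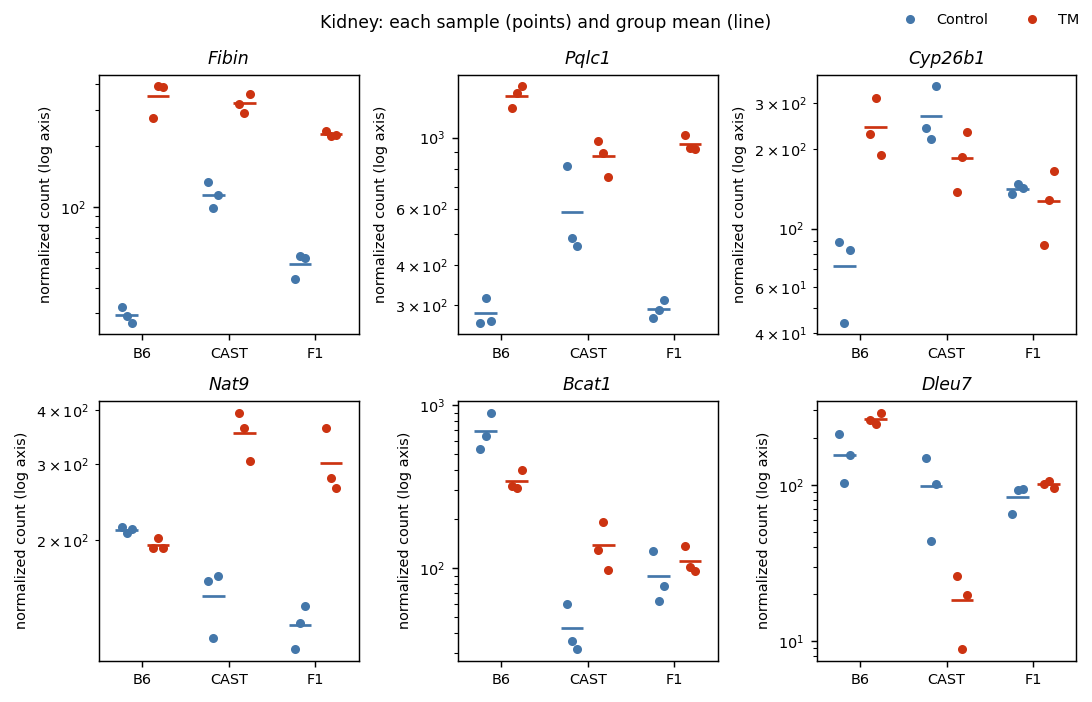
Normalized counts (log axis) of the 6 genes in every kidney sample, with controls in blue, TM in red and a line at each group mean of 3 samples. The TM points lie above the control points in all 3 genotypes for Fibin only. For Nat9, Bcat1 and Dleu7 they lie on opposite sides of the controls in B6 and CAST, by a narrow margin for Nat9 in B6.

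Fibin, the secreted fin bud factor, had the largest TM response of the 6 genes in B6 kidney. Its normalized counts, which are reads divided by a size factor for each library, were 32.2, 29.0 and 27.0 in the B6 controls and 275, 392 and 389 with TM. In CAST they were 132, 98.7 and 114 in controls and 320.0, 289 and 359 with TM. In F1 they were 44.2, 57.3 and 56.3 in controls and 236, 223 and 225 with TM. Control and TM samples did not overlap in any genotype. The log2 fold changes were 3.52 ± 0.19 (SE) in B6, 1.49 ± 0.18 in CAST and 2.10 ± 0.20 in F1, which is 11.5-fold, 2.80-fold and 4.30-fold. The CAST response was smaller than the B6 response by 2.04 ± 0.26 on the log2 scale.

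Most of that difference lay in the controls. On a scale common to all libraries (CPM with trimmed-mean scaling), Fibin was at 1.76 ± 0.14 (SD, n = 3) in B6 control kidney and at 7.07 ± 0.80 in CAST control kidney, a 4.02-fold gap. With TM the same strains stood at 19.95 ± 3.91 and 19.2 ± 2.27 CPM, and their samples overlapped. F1 lay between the parents in controls (3.86 ± 0.66 CPM) and at 16.1 ± 0.52 with TM. B6 reads had been aligned to the B6 genome, CAST reads to the CAST genome and F1 reads, with another aligner, to a masked genome, so a difference in level between genotypes and a difference between references cannot be told apart. The fold change within a genotype compares libraries aligned in the same way.

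**Figure D2:**
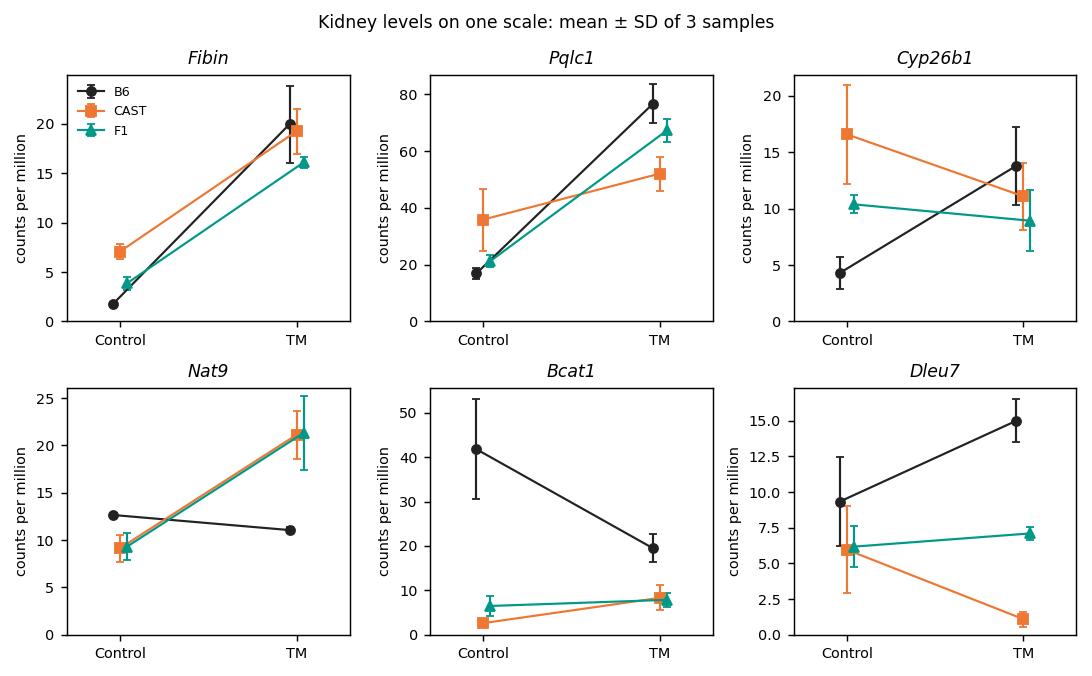
Level of each gene in kidney controls and with TM, in CPM on a scale common to all libraries (mean ± SD, 3 samples a point), for B6 (black circles), CAST (orange squares) and F1 (green triangles). The Fibin lines start at 1.76, 3.86 and 7.07 CPM and end between 16.1 and 19.95; the Dleu7 lines of B6 and CAST end far apart, at 15.0 and 1.09 CPM.

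Pqlc1, the PQ-loop protein, followed the same order of responses. In B6 kidney its normalized counts were 264, 315 and 268 in controls and 1238, 1376 and 1446 with TM. In CAST they were 816, 486 and 457 in controls and 972, 896 and 755 with TM. In F1 they were 273, 288 and 311 in controls and 1015, 927 and 923 with TM. The TM samples were clear of the controls in B6 and F1, whereas in CAST the first control lay above the lowest TM sample. This gave log2 fold changes of 2.26 ± 0.12 in B6, 0.62 ± 0.24 in CAST and 1.71 ± 0.17 in F1. For CAST this lay below the threshold, and above it with the replicate number as a block (5 of the 6 genes past it in place of 4) or without control 1, where it was 0.88, which describes its closeness to the threshold and is no test. Controls of CAST stood 2.13-fold above those of B6 (35.9 ± 10.9 and 16.9 ± 1.81 CPM), and with TM the order was turned, with 52.1 ± 6.01 CPM in CAST and 76.7 ± 6.87 in B6.

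Cyp26b1, the retinoic acid hydroxylase, was higher with TM in B6 kidney only. Its B6 counts were 89.0, 44.0 and 82.7 in controls and 229, 314 and 189.9 with TM. CAST had 241, 218 and 347 in controls and 137, 186 and 233 with TM. F1 had 135, 148 and 142 in controls and 86.5, 129 and 165 with TM. B6 samples were clearly apart, and CAST and F1 samples overlapped. TM moved Cyp26b1 on the log2 scale by 1.78 ± 0.28 in B6, −0.53 ± 0.25 in CAST and −0.21 ± 0.25 in F1, and neither of the last passed the threshold. As with Fibin, the B6 controls were low (4.30 ± 1.44 CPM) beside those of CAST (16.6 ± 4.39), a 3.86-fold gap. With TM the means were 13.8 ± 3.46 in B6 and 11.1 ± 2.98 in CAST, with overlapping samples.

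Nat9, the N-acetyltransferase, showed the reverse: it was higher with TM in CAST and F1 and not in B6. The B6 kidney counts were 214, 208 and 212 in controls and 192, 202 and 192 with TM. In CAST they were 161, 119 and 166 in controls and 395, 364 and 304 with TM. In F1 they were 112, 128 and 141 in controls and 363, 279 and 264 with TM. Every TM sample was above every control in CAST and F1, and every TM sample was slightly below every control in B6. Its log2 fold changes were −0.12 ± 0.12 in B6, 1.26 ± 0.19 in CAST and 1.24 ± 0.20 in F1, so the response of F1 and that of CAST differed by less than their error (−0.02 ± 0.24). In controls B6 was the highest, at 12.7 ± 0.13 CPM against 9.14 ± 1.45 in CAST and 9.31 ± 1.41 in F1, and its samples did not overlap theirs. With TM the order was turned, with 11.1 ± 0.28 in B6, 21.1 ± 2.53 in CAST and 21.3 ± 3.88 in F1.

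Bcat1, the cytosolic branched-chain aminotransferase, was lower with TM in B6 kidney and higher in CAST kidney. Its B6 counts were 543, 649 and 900.5 in controls and 320.1, 309 and 401 with TM. CAST kidney held 60.7, 35.8 and 32.0 in controls and 129, 192 and 97.6 with TM. F1 kidney held 127, 62.7 and 78.2 in controls and 136, 101 and 96.6 with TM. Control and TM samples did not overlap in either parent strain, and they did overlap in F1. On the log2 scale the TM response of Bcat1 was −1.00 ± 0.19 in B6, 1.68 ± 0.32 in CAST and 0.36 ± 0.28 in F1. F1 control 1, the library with the fewest reads and many receptor reads, was the highest F1 control, and without it the F1 value was 0.65. Leaving out each F1 sample in turn gave 0.14 to 0.65. The level in B6 controls was 41.8 ± 11.2 CPM, 15.9-fold above the 2.62 ± 0.86 of CAST controls. With TM the gap was 2.34-fold (19.5 ± 3.16 and 8.32 ± 2.84 CPM). F1 kidney was nearer to CAST than to B6 both in controls (6.48 ± 2.20 CPM) and with TM (7.86 ± 1.56).

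Dleu7 was higher with TM in B6 kidney and lower in CAST kidney. In B6 its counts were 210.2, 103 and 155 in controls and 259.9, 244 and 289 with TM. CAST samples had 149, 43.7 and 101 in controls and 26.3, 8.92 and 19.9 with TM. F1 samples had 65.0, 92.5 and 94.7 in controls and 101, 106 and 95.0 with TM. The CAST TM samples, which rest on 9 to 24 reads each, all lay below the lowest CAST control, and the B6 TM samples all lay above the highest B6 control. Log2 fold changes of Dleu7 were 0.81 ± 0.23 (B6), −2.30 ± 0.50 (CAST) and 0.28 ± 0.22 (F1). Without F1 control 1 the F1 value was 0.10 ± 0.17. In B6 the value no longer passed the threshold without control 2, control 3, TM 2 or TM 3, with log2 values from 0.54 to 1.05 over all settings, and in CAST it no longer passed without control 3 or TM 2, with values from −2.79 to −1.88. In controls the strains were at 9.33 ± 3.13 (B6), 5.96 ± 3.05 (CAST) and 6.18 ± 1.42 CPM (F1), with overlapping samples. With TM, B6 stood at 15.0 ± 1.51, F1 at 7.10 ± 0.47 and CAST at 1.09 ± 0.52 CPM, a 13.7-fold gap between the parents.

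In F1, the estimate of the kidney response lay between those of the parents for all 6 genes. Put as the share of the way from the B6 to the CAST log2 fold change, F1 was at 17.2% for Dleu7, 33.3% for Pqlc1, 50.7% for Bcat1, 69.6% for Fibin, 86.0% for Cyp26b1 and 98.4% for Nat9. These shares carry no error. F1 was within its error of CAST for Nat9 (−0.02 ± 0.24) and Cyp26b1 (0.33 ± 0.41), and about 1 error from B6 for Dleu7 (−0.54 ± 0.54). Fibin, Pqlc1 and Bcat1 lay more than 2 errors from each parent. Against the mean of both parental responses, the F1 response was higher by 1.02 ± 0.46 (SE) for Dleu7 (0.85 ± 0.51 without F1 control 1), 0.66 ± 0.21 for Nat9, 0.27 ± 0.23 for Pqlc1 and 0.02 ± 0.36 for Bcat1. It was below that mean for Fibin (−0.40 ± 0.22) and Cyp26b1 (−0.83 ± 0.35). The value of Bcat1 was far smaller than its error (0.30 ± 0.35 without F1 control 1), and those of Pqlc1 and Fibin were under 2 errors.

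In liver, Fibin rose with TM in all 3 genotypes, and the other genes moved less or in 1 genotype. Of the 5 genes tested in B6 liver, Fibin and Pqlc1 rose and none fell, against 4.8% of all genes called higher and 6.45% lower. In CAST liver, Fibin and Nat9 rose among 4 tested (11.1% of all genes higher, 10.4% lower), and in F1 liver only Fibin rose among 5 (3.42% and 4.15%). All p-values here are from limma across all genes of a table, with Benjamini-Hochberg adjustment.

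**Figure D3:**
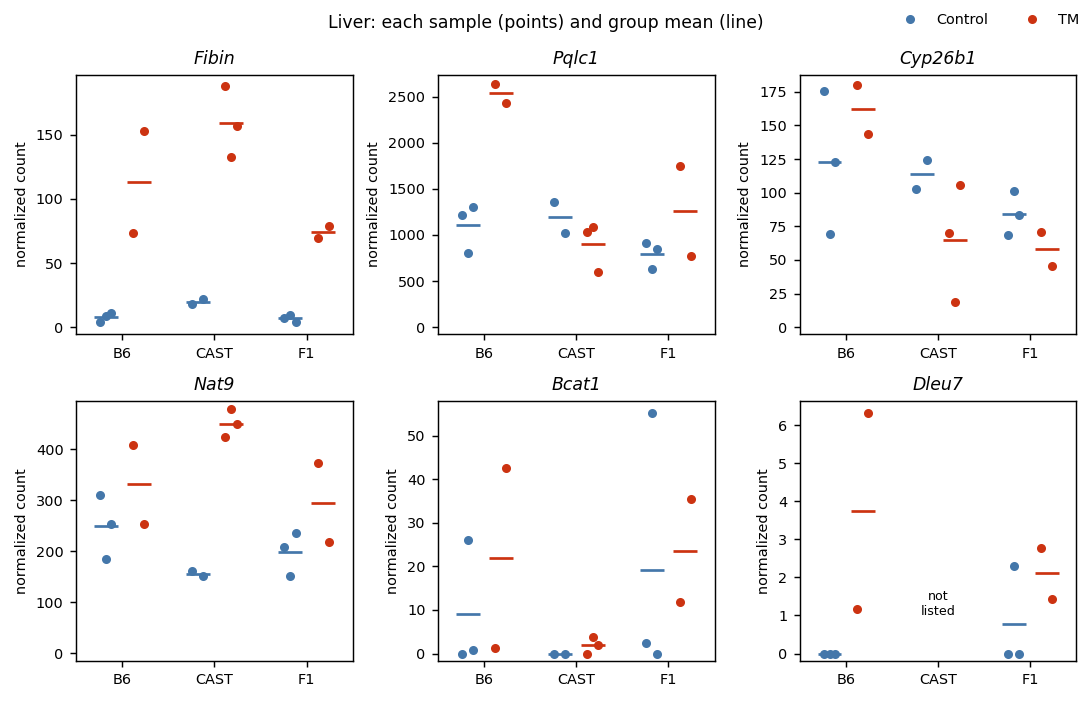
Normalized counts (linear axis) of the 6 genes in every liver sample, with controls in blue, TM in red and a line at each group mean of 2 or 3 samples. Fibin is above its controls in every TM sample of all 3 genotypes, Nat9 in every CAST sample, and Dleu7 and most Bcat1 samples are near 0.

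The liver counts of Fibin were 4.01, 8.69 and 11.0 in B6 controls and 73.3 and 153 with TM. CAST had 18.2 and 21.8 in controls and 188, 133 and 156 with TM, and F1 had 7.50, 9.21 and 3.92 in controls and 69.4 and 78.8 with TM. No TM sample overlapped a control. The log2 fold changes were 3.68 ± 0.56 in B6 (adjusted p = 0.00258), 2.92 ± 0.28 in CAST (adjusted p = 0.000152) and 3.32 ± 0.69 in F1 (adjusted p = 0.00371). In F1 the call was lost when TM 1 or TM 2 was left out, with values of 3.41 (adjusted p = 0.153) and 3.23 (adjusted p = 0.0918). The levels in controls had the order seen in kidney, with 2.59 ± 0.33 CPM in CAST (n = 2) and 0.776 ± 0.353 in B6 (n = 3).

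Pqlc1 was a more abundant transcript in liver than in kidney. Its B6 counts were 1212, 802 and 1304 in controls and 2637 and 2431 with TM. CAST had 1353 and 1025 in controls and 1029, 1086 and 597 with TM, and F1 had 914, 629 and 845 in controls and 1753 and 773 with TM. Only in B6 were TM and control samples apart. The log2 fold change was 1.23 ± 0.31 in B6 (adjusted p = 0.0278), −0.43 ± 0.29 in CAST (adjusted p = 0.326) and 0.57 ± 0.44 in F1 (adjusted p = 0.642). The B6 call was lost without control 1, control 3, TM 1 or TM 3, at log2 values of 1.17 to 1.36.

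Nat9 rose in CAST liver, from 162 and 151 in controls to 424, 478 and 449 with TM. In B6 liver it was 311, 186 and 254 in controls and 409 and 254 with TM, and in F1 liver 209, 152 and 235 and then 373 and 218. The CAST samples were apart and the others overlapped. Its log2 fold change was 1.52 ± 0.22 in CAST (adjusted p = 0.000972), 0.40 ± 0.34 in B6 (adjusted p = 0.589) and 0.54 ± 0.41 in F1 (adjusted p = 0.633). In F1 liver the low TM sample of both Nat9 and Pqlc1 was TM 2, the library with the most receptor reads (1990 CPM). Without that library neither gene was called, at 0.93 for Nat9 (adjusted p = 0.374) and 1.16 for Pqlc1 (adjusted p = 0.216). With control 2 left out as well, a choice made after seeing the data, both were called, at 0.75 for Nat9 (adjusted p = 0.0140) and 0.99 for Pqlc1 (adjusted p = 0.00164). Both of these fits rest on 1 TM sample, and without TM 1 in place of TM 2 the values were 0.15 for Nat9 and −0.024 for Pqlc1.

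Cyp26b1 was not called in any liver. Its counts were 175, 69.5 and 123 in B6 controls and 179.7 and 144 with TM, 103 and 124 in CAST controls and 70.2, 18.5 and 106 with TM, and 68.4, 101 and 83.2 in F1 controls and 70.8 and 45.6 with TM. All 3 pairs of groups overlapped. The log2 fold changes were 0.49 ± 0.40 in B6 (adjusted p = 0.562), −1.11 ± 0.58 in CAST (adjusted p = 0.208) and −0.54 ± 0.46 in F1 (adjusted p = 0.690). The CAST value rested on TM 2, which had 10 reads of the gene, and without it was −0.38 (adjusted p = 0.416). With the replicate number as a block, which uses 2 pairs and TM 2 among them, it was −1.32 and was called (adjusted p = 0.00257), and the same value without TM 1 and without a block was not (adjusted p = 0.151).

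Bcat1 and Dleu7 were nearly absent from liver. Bcat1 had counts of 0, 26.1 and 0.915 in B6 controls and 1.18 and 42.7 with TM, and 2.50, 55.3 and 0 in F1 controls and 11.8 and 35.4 with TM. In CAST liver it had 0 in both controls and 0, 3.69 and 2.06 with TM, which was too low to test. A count of 0 allows up to 3 reads, or 0.185 to 0.260 CPM in these libraries, counting error only. The log2 fold changes of 1.39 ± 1.80 in B6 (adjusted p = 0.776) and 1.89 ± 1.30 in F1 (adjusted p = 0.563) were close to their errors, and without F1 control 2, its highest control, the F1 value was 3.53 and was called (adjusted p = 0.0314). All 4 liver libraries with over 20 normalized counts of Bcat1 were among the libraries that stood apart: receptor genes took 543, 886 and 1990 CPM in B6 control 2, B6 TM 3 and F1 TM 2, and F1 control 2 held the repeat-like reads with 95.4 CPM of receptors. The part of those libraries in the Bcat1 values was not tested. Dleu7 had at most 8 reads in any liver library and was not listed in CAST liver, so it was not tested there.

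**Figure D4:**
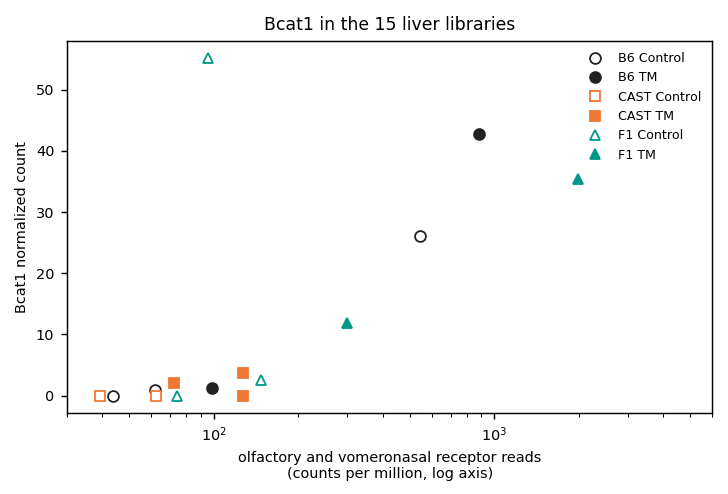
Normalized count of Bcat1 (vertical axis) against the summed CPM of olfactory and vomeronasal receptor genes (horizontal log axis) in the 15 liver libraries, by genotype (shape and colour) and treatment (filled for TM). The 3 libraries above 400 CPM have 26.1, 42.7 and 35.4, F1 control 2 has 55.3 at 95.4 CPM, and all others have 11.8 or less.

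Whether the liver response depended on genotype was tested in 1 fit over the 3 liver tables. None of 20157 genes passed (0.0% called), and 761 had an unadjusted p below 0.05. With edgeR's quasi-likelihood test 0 genes passed as well, and by DESeq2's likelihood ratio test 104. None of the 5 genes tested was called by any tool, with an adjusted p of 1.00 for each in limma. The CAST response minus the B6 response in liver was −1.66 ± 0.52 for Pqlc1 (unadjusted p = 0.00500, adjusted p = 0.757), −1.59 ± 0.76 for Cyp26b1, 1.12 ± 0.46 for Nat9 and −0.76 ± 0.65 for Fibin. In kidney the same differences were −1.64 ± 0.26, −2.32 ± 0.41, 1.37 ± 0.24 and −2.04 ± 0.26. Bcat1 had −0.11 ± 2.38 in liver, an error too wide to set beside the 2.68 ± 0.42 of kidney. The genes were chosen on these kidney differences, which can make them too large. Neither a tissue difference nor a repeat of the kidney result is therefore read from these values. No gene passed for the F1 response minus the mean parental response in liver either (0.0% called by limma, 735 with an unadjusted p below 0.05), and that contrast was not run with the count tools. Its values ran from −0.41 ± 0.39 for Nat9 to 0.56 ± 2.06 for Bcat1. The error of the CAST response minus the B6 response was larger in liver than in kidney for all 5 genes, with 0.46 to 2.38 in liver and 0.24 to 0.42 in kidney.

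**Figure D5:**
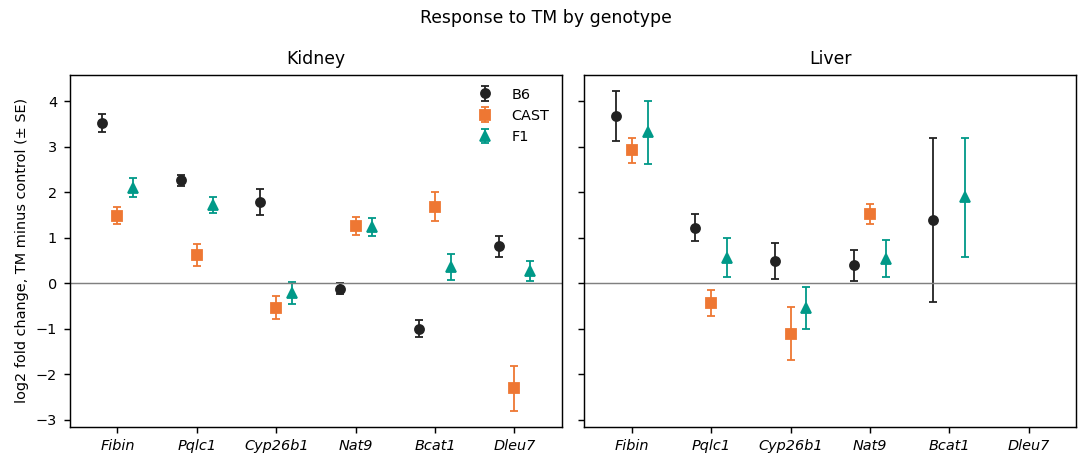
Log2 fold change of TM minus control with its standard error, by genotype, in kidney (left) and liver (right). In kidney the B6 and CAST values of Bcat1 are −1.00 and 1.68 and those of Dleu7 0.81 and −2.30. In liver the called values are those of Nat9 in CAST (1.52), Pqlc1 in B6 (1.23) and Fibin in all 3 genotypes (2.92 to 3.68), and Dleu7 is not shown.

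Set in order of level over the 12 groups, each gene had its own pattern. Fibin was highest in CAST liver with TM (20.1 ± 4.18 CPM), followed by the B6 and CAST kidneys with TM, and these 3 did not differ beyond their spread. Pqlc1 was highest in B6 liver with TM (248 ± 12.2 CPM), clear of the next group, and lowest in B6 control kidney. Cyp26b1 was highest in CAST control kidney and lowest in B6 control kidney, and every neighbour in its order overlapped the next except for the lowest group. Nat9 was highest in CAST liver with TM (56.5 ± 1.64 CPM), clear of F1 liver with TM at 35.3 ± 10.8. For Bcat1 the top place, clear of all others, was held by B6 control kidney, then by B6 kidney with TM. Dleu7 was highest in B6 kidney with TM, and its 6 kidney groups all lay above every liver group on average.

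The rest of each gene's pathway was looked at through lists set from general knowledge. Of 25 other genes that use branched-chain amino acids, 2 rose and 2 fell in B6 kidney, 1 rose and 1 fell in CAST kidney, and 2 rose in F1 kidney, beside shares over all genes of 9.73% higher and 7.77% lower (B6), 8.69% higher and 4.7% lower (CAST), and 7.54% higher and 2.57% lower (F1). These shares hold for each list below. The 25 genes had median log2 fold changes of −0.28, −0.07 and 0.22 beside −0.01, −0.05 and −0.13 over all genes. Slc25a44, which carries these amino acids into mitochondria, rose in each kidney (0.64 ± 0.14 in B6, adjusted p = 0.00950; 0.87 ± 0.17 in CAST, adjusted p = 0.0114; 1.07 ± 0.26 in F1, adjusted p = 0.0264). Ivd, which oxidises the leucine product isovaleryl-CoA, fell in B6 (−0.91 ± 0.18, adjusted p = 0.00570) and CAST (−0.81 ± 0.20, adjusted p = 0.0272). None of the 25 was called for genotype dependence, against 0.0878% of all kidney genes, a share at which none of 25 says little about them.

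Of the retinoid genes other than Cyp26b1, 2 of 22 tested rose and none fell in B6 kidney, 2 of 20 rose and 2 fell in CAST, and 2 of 22 rose and 1 fell in F1. The medians were 0.05, −0.09 and −0.10 beside −0.01, −0.05 and −0.13 over all genes. Rxrb, a partner of the retinoic acid receptors, rose in all 3 kidneys, by 1.05 ± 0.12 (adjusted p = 0.000190) in B6, 1.24 ± 0.15 (adjusted p = 0.000997) in CAST and 1.51 ± 0.26 (adjusted p = 0.00463) in F1. Lrat, which stores retinol as esters, fell in CAST (−1.76 ± 0.38, adjusted p = 0.0156) and F1 (−1.60 ± 0.35, adjusted p = 0.0167), and its B6 value was −0.68 ± 0.50 (adjusted p = 0.393). No retinoid gene but Cyp26b1 was called for genotype dependence, so the difference between −0.68 and −1.76 was not established. Among 5 other PQ-loop genes, Pqlc2 fell in B6 kidney (−0.70 ± 0.16, adjusted p = 0.00934) and no other was called in any kidney. The F1 value of Pqlc2 was similar and not called (−0.73 ± 0.23, adjusted p = 0.0742), and its CAST value was −0.18 ± 0.19 (adjusted p = 0.596). Of 21 other N-acetyltransferases, 3 rose and 2 fell in B6 kidney, 4 rose in CAST and 3 rose in F1, with medians of 0.00, 0.03 and 0.46 beside the same all-gene medians, and shares of 9.73% higher and 7.77% lower (B6), 8.69% higher (CAST) and 7.54% higher (F1) over all genes. Gnpnat1, which makes a precursor of the sugar donor that TM competes with, rose by 2.45 ± 0.31, 2.25 ± 0.28 and 2.26 ± 0.33 (adjusted p = 0.000458, 0.000977 and 0.00182). No gene of either list passed the genotype test in kidney apart from the members.

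Genes next to the 6 on the chromosome, 2 coding genes on each side in RefSeq, were compared next. Of 24 such neighbours 23 were tested for genotype dependence in kidney and 0 passed by limma, against 0.0878% of all genes, a share at which none of 23 says little about them. They had a lowest adjusted p of 0.259 for Slc9a3r1 beside Nat9. Some had a TM response of their own: Ano3 near Fibin fell in B6 (−3.63 ± 0.49, adjusted p = 0.000624) and F1 (−3.35 ± 0.44, adjusted p = 0.00103). In CAST kidney Ano3 was too low to test, with mean normalized counts of 5.14 in controls and 2.30 with TM. Bbox1 near Fibin fell in CAST (−2.02 ± 0.35, adjusted p = 0.00592) and F1 (−1.52 ± 0.33, adjusted p = 0.0157), and its B6 value was −0.69 ± 0.44 (adjusted p = 0.310). Also called were Ccdc34 (lower in B6), Gm16286 (higher in B6 and F1), Ctdp1 (higher in CAST) and Slc9a3r1 (higher in F1). Tmem104, which overlaps Nat9 by 373 bases on the opposite strand in GENCODE, had log2 values of 0.19 ± 0.16 in B6, 0.76 ± 0.26 in CAST and 0.74 ± 0.23 in F1, none of them called (adjusted p = 0.471, 0.0920 and 0.0743). Rnaseh2b overlaps Dleu7 by 459 bases in the same way and had 0.08 ± 0.13, −0.58 ± 0.29 and 0.17 ± 0.17. The library kit kept strand, but the sources used here do not say whether the counting used it, so reads from the shared bases cannot be told apart. Bcat1 overlaps Gm26666 by 2872 and Gm15687 by 3504 bases on the opposite strand, and the small rRNA gene Gm23071 by 115 bases on its own strand, all with mean kidney counts of at most 3.94. Fibin, Cyp26b1 and Pqlc1 overlap no other annotated gene.

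Over the 18 kidney samples, the gene most like each of the 6 was found by Pearson's r of log2 counts after the control mean of each genotype had been taken away. The candidates were 10697 other named genes, and the values describe samples that share libraries, treatment and depth. Fibin was most like Btg1 (r = 0.97), Btg2 (0.97) and Itga7 (0.96), all with their largest TM response in B6. The search favours genes that share the genotype order of the gene they are matched to, so this order is no separate result for any match. Btg2, an antiproliferative gene, had log2 fold changes of 3.55 in B6, 2.04 in CAST and 2.75 in F1. Pqlc1 was most like Fibin (0.96), Ggps1 (0.95) and the serine synthesis enzyme Phgdh (0.95), the last with 3.46, 1.82 and 3.24. Fibin, Pqlc1 and Phgdh are all on the list of kidney genes called genotype-dependent in these same samples, so their likeness partly follows from that. Nat9 was most like Dad1 (0.95), a subunit of the oligosaccharyltransferase, and Slc33a1 (0.95), the acetyl-CoA transporter of the ER, then Tax1bp1 (0.94). The log2 fold changes of Dad1 were 0.15 (B6), 0.78 (CAST) and 0.81 (F1). Matches were looser for the other 3 genes: Cyp26b1 with Rasgef1b (0.86), Ripor1 (0.81) and Zfp112 (0.81), Bcat1 with Cby1 (0.86), Cyp51 (0.83) and Accs (0.82), and Dleu7 with Ube2u (0.87), Bend5 (0.84) and Tmem123 (0.82).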

How the data were processed

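RNA of liver and kidney was sequenced from a stranded total RNA library (ribosomal RNA removed). The authors aligned parental reads with Bowtie2 2.2.9, each strain to its own genome, and F1 reads to a masked genome with STAR 2.6 (SAMtools 1.12), and normalised with DESeq2 1.28.1. The strain genomes came from Ensembl, and the counting tool is not named in the sources used here. Each deposited signal is a count per gene divided by the size factor of its library, in 6 tables normalised separately, and all values came out as whole reads within 0.01. Samples that did not cluster with their treatment had been removed by the authors. All kidney groups have 3 samples, so this bears on the liver groups of 2, whose spread it may narrow.

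Tests used limma 3.58.1 with trend (R 4.3.3) on log2(value + 1) of genes with a mean of at least 5, within each table for TM against control, and over the 3 tables of a tissue for genotype dependence (F test). A fold change on this scale understates the change of low genes. A call needed a Benjamini-Hochberg adjusted p below 0.05 and, for TM against control, 1.5-fold. Alternatives were the count tests of edgeR 4.0.16 and of DESeq2 1.42.0 on recovered reads, other pseudocounts, filters and scalings, a replicate block and leaving out samples. Levels across tables are TMM-scaled CPM. The limma step was checked on simulated data. The 6 genes and all lists were chosen with earlier results of these data known. Genes named beside them are 2 coding neighbours on each side, the 3 most alike over kidney samples (mean of at least 50), the strongest called kidney genes of a list (3 at most), and Hspa5 and Ddit3. Of 50420 gene IDs, 50305 had a symbol in the name table. Same-numbered control and TM samples deviated together in B6 kidney (r of 0.25 to 0.48) and CAST kidney (0.25 to 0.53). No label states a pair, and whether the numbers pair the samples was not tested. In F1 kidney not all same-numbered samples deviated together (lowest −0.03), and liver had 2 same-numbered pairs a genotype. The values given are from the fit without the block unless stated, and the block was run on all tables as an alternative.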

Additional observations from a re-analysis of the deposited data

Results flagged for a closer look

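Nat9, Bcat1 and Dleu7 had TM samples on opposite sides of their controls in different genotypes of kidney. The share of all kidney genes with such a pattern was not counted, so nothing is read from the number of these genes. Every sample of one genotype moved one way and every sample of another the other way, and no p-value is given for the difference, since the genes were chosen on the genotype test of these same samples, and it was not tested in independent ones. Nat9 had log2 fold changes of −0.12 (B6), 1.26 (CAST) and 1.24 (F1). The B6 value is about the size of its standard error (0.12), and its samples are apart only because their spread is so small (SD of 3.44 normalized counts in controls and 5.76 with TM). Bcat1 had −1.00 in B6 and 1.68 in CAST. Dleu7 had −2.30 in CAST, and 0.81 in B6 and 0.28 in F1, where the lowest TM sample (95.0) barely passes the highest control (94.7).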

How the results depend on the processing

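Over the alternatives run, the sign of every liver and kidney TM response was kept except for Bcat1 in B6 liver, Pqlc1 in F1 liver and Cyp26b1 in F1 kidney, the last never called (−0.42 to 0.04). Bcat1 in B6 liver ran from −0.77 to 3.55 on the log2 scale over the samples left out in turn and Pqlc1 in F1 liver from −0.024 to 1.16. The count of the 6 genes called in B6 liver was 2, 0 without the trend of limma, and 1 to 2 with a sample left out. In F1 liver it was 1, but 0 with no filter on low values, without trend or without the receptor-rich libraries, 3 without the receptor-rich and repeat-rich libraries (chosen after seeing the data), and 0 to 2 with a sample left out. In CAST liver it was 2, and 3 with the replicate block (Cyp26b1 added). The 6 genes called for genotype dependence in kidney became 1 without trend and 1 to 6 with a sample left out, and the 20 genes called in all became 42 with a pseudocount of 5, 11 without trend, 110 with DESeq2, 35 without the receptor-rich libraries and 8 to 35 with a sample left out. In liver 0 genes became 5 with a pseudocount of 5, 3 with a filter at 20, 104 with DESeq2, 23 without the receptor-rich libraries, 136 without the receptor-rich and repeat-rich libraries, and 0 to 32 with a sample left out, and 0 of the 6 genes in each case. The cause of these shifts was not tested.

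With the replicate number as a block, pairing control with TM samples, 70 genes were called for genotype dependence in kidney and 61 in liver. The block changed no other call of the 6 genes than those of Pqlc1 in CAST kidney and Cyp26b1 in CAST liver. It turned the liver F1 response minus the mean parental response to −0.28 for Fibin, 0.051 for Cyp26b1 and −1.75 for Bcat1. That contrast was unstable in liver throughout: for Fibin it was −0.17 with a pseudocount of 5, −0.10 with TMM scaling and −0.084 with the median set to 0, and for Cyp26b1 0.18 without the receptor-rich and 0.32 without the receptor-rich and repeat-rich libraries. With a sample left out it ran from −0.29 to 0.28 for Fibin, −0.42 to 0.76 for Pqlc1, −0.59 to 0.079 for Cyp26b1 and −0.71 to 2.19 for Bcat1. Depth limits Bcat1 and Dleu7 in liver, at 0 to 54 reads a library.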
